A study of Mus musculus with 16 samples.

Results

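Mouse pancreas RNA was examined for 9 genes through which islet cells sense glucose, fatty acids and incretin hormones, namely Slc2a2, G6pc2, Abcc8, Kcnj11, Glp1r, Gipr, Ffar1, Trpm5 and Gcgr. They were taken by symbol and are 9 of the 24411 gene symbols in the deposited counts. All 9 passed the filter on low counts, as did 13660 genes in all. Bulk RNA-seq of whole pancreas was carried out in 16 male C57BL6/J mice of 12 weeks of age on chow, with 1 library from each mouse. The groups were 5 lean WT mice, 7 obese Lep(ob/ob) mice, and a further 4 mice of that genotype that drank a CCK receptor antagonist (CCKRi) from 6 weeks of age on for 6 weeks. The antagonist was proglumide (0.1 mg/mL) for 2 of these mice and lorglumide (0.05 mg/mL) for the other 2, and both block receptors of the gut hormone cholecystokinin. WT and untreated Lep(ob/ob) mice drank control water. Mean weight at collection was 27.7 ± 3.22 g (SD, n = 5) for WT, 51.0 ± 1.98 g (SD, n = 7) for Lep(ob/ob) and 54.8 ± 2.22 g (SD, n = 4) with CCKRi. Lep(ob/ob) mice lack working leptin in every tissue from birth, and the labels state that WT mice were bred in house while Lep(ob/ob) mice were bought, whereas the methods of the study state that both were bought. Lep transcript itself was not lower in Lep(ob/ob) libraries (254 to 8655 normalized counts, against 17.5 to 64.7 in WT), and since the ob allele is a nonsense mutation that leaves a transcript, its level does not check the genotype labels.

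In a beta cell, glucose enters through the transporter encoded by Slc2a2 (GLUT2) and is phosphorylated, a step that the islet phosphatase G6PC2 runs backward. The ATP made from glucose closes a potassium channel built from the pore subunit Kcnj11 and the sulfonylurea receptor Abcc8, and the calcium that then enters releases insulin. Incretins of the gut amplify this release through the cAMP-coupled receptors Glp1r and Gipr, glucagon acts through the related receptor Gcgr, long-chain fatty acids through Ffar1, and Trpm5 is a cation channel opened by calcium. Ins2, an insulin gene of the mouse, was used as the measure of islet content, because whole pancreas is mostly exocrine tissue.

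Promoter sequences are shown for G6pc2, whose level followed that of Ins2 closely over the 16 mice, and for Slc2a2 and Glp1r, whose levels followed it less closely. They come from RefSeq (GRCm38.p6) and run from 250 bases before to 50 bases after the annotated start, 5′ to 3′ on the gene's strand, and 6 of the 9 genes matched the table (all but Abcc8, Kcnj11 and Gipr). G6pc2 has 2 starts in the table and is shown at the first. Capitals mark TAAT, the core bound by homeodomain factors such as PDX1, and CANNTG, the E box bound by factors such as NEUROD1, on either strand.
G6pc2, chr2:69210823-69211122, + strand: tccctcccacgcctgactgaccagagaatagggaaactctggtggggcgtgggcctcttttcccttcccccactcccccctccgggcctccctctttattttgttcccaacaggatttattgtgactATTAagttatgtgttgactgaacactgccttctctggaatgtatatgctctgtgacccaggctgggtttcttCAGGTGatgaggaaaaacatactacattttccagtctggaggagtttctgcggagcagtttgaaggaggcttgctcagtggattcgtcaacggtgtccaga
Slc2a2, chr3:28697653-28697952, + strand: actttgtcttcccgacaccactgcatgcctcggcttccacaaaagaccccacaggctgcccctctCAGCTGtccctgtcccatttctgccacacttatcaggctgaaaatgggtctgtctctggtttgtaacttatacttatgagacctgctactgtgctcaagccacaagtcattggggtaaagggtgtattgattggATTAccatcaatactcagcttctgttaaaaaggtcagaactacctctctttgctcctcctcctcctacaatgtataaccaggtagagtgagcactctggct
Glp1r, chr17:30901617-30901916, + strand: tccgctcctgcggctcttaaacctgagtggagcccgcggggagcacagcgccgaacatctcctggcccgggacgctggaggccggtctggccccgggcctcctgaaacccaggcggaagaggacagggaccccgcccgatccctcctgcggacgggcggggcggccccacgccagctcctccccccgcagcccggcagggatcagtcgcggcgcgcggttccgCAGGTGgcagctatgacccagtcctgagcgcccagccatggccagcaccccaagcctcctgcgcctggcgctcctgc
Counted from the start site, TAAT lay at -123 in G6pc2 and at -51 in Slc2a2, and was not found in this window of Glp1r. CANNTG lay at -51 in G6pc2, at -185 in Slc2a2 and at -27 in Glp1r. TAAT occurred in 58.0% and CANNTG in 72.3% of the 32851 promoters of the table, so that neither sets these windows apart. Bases G and C made up 73.7% of the Glp1r window, 48.0% of that of Slc2a2 and 50.7% of that of G6pc2, with a median of 52.7% over all promoters. TGCTGA, bound by Maf factors, and GTTAAT, bound by HNF1 factors, searched on both strands, were found in none of these 3 windows and occurred in 19.5% and 7.10% of all promoters.

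Of the 9 genes, 5 lie on chromosome 7 (GRCm38, GENCODE M21). The channel partners are neighbours on the minus strand, with Kcnj11 at chr7:46093953-46100764, 3758 bases from the end of Abcc8 at chr7:46104523-46180033. Gipr lies at chr7:19156061-19166127, Ffar1 at chr7:30857390-30861564 and Trpm5 at chr7:143069153-143094642, all on the minus strand. The plus strand holds Slc2a2 (chr3:28697903-28731359), G6pc2 (chr2:69211073-69227841), Glp1r (chr17:30901817-30940791) and Gcgr (chr11:120530699-120538986). Ffar1 has 1 exon, whereas Abcc8 has 38 and Trpm5 27. Trpm5 overlaps Tssc4 on the other strand, and 2.57% of its 50-base stretches also occur in Tssc4 transcripts, against at most 0.802% shared with any other gene for the remaining genes. The libraries were made strand-specific, but whether reads were counted by strand is not given in the sources used here, so reads of Trpm5 and Tssc4, and of Slc2a2, Abcc8, Glp1r and Gcgr and the antisense transcripts that overlap them, may not be fully separated.

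Between 9.87 and 34.5 M reads were counted per mouse. The labels give 2 batches. In batch A were 4 obese untreated mice and 3 WT mice, at 19.2 to 34.5 M reads, and in batch B 3 obese untreated mice, 2 WT mice and all 4 mice on CCKRi, at 9.87 to 15.9 M reads. Batch was a term of the pooled models unless stated otherwise. Adipocyte transcripts (8 marker genes) were summed as counts per M of a scaled library size (CPM), which is not the total of reads. The sums were 464 to 1584 CPM in 4 libraries, Lep(ob/ob) mice 417, 461 and 463 and proglumide mouse 69, and 66.7 to 358 in the other 12. The same 4 libraries also stood apart in macrophage markers (4 genes, 90.7 to 247 CPM against 31.6 to 60.8), in tuft cell markers (23.1 to 40.3 against 10.4 to 17.01) and, with lower sums, in duct markers (6 genes, 87.8 to 150.9 against 156 to 215). Of these 4 libraries, mice 461, 463 and 69 also had the lowest Ins2 counts of all obese mice. The main results are given with and without these 4 libraries, a choice made after the data had been seen.

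Islet content was compared first. Ins2 was at 11611, 12111 and 12665 normalized counts in the WT mice of batch A and at 11522 and 8549 in those of batch B. In Lep(ob/ob) mice it was at 82910 to 117761 in batch A (n = 4) but only at 22738, 28031 and 50651 in batch B. The groups did not overlap in either batch, and the difference was 2.49 ± 0.47 on the log2 scale (SE; adjusted p = 0.00327, edgeR quasi-likelihood test, adjusted over all genes by the method of Benjamini and Hochberg, as for every adjusted p here). Ins1 (2.27 ± 0.50) and Iapp (2.81 ± 0.51), the other beta cell hormones, rose with it. In bulk tissue, more islet cells and more RNA per islet cell cannot be told apart.

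Obese and lean pancreas were then compared for the 9 genes. G6pc2, Abcc8, Kcnj11, Ffar1 and Gcgr, 5 of the 9, were higher in obese Lep(ob/ob) pancreas than in lean WT pancreas, between 3.19-fold and 5.12-fold, and none was lower. Slc2a2, Glp1r, Gipr and Trpm5 did not pass the test. Of all genes tested, 5.93% were higher and 3.14% were lower in this comparison. The median log2 fold change was 1.67 over the 9 genes and -0.02 over all genes. By DESeq2 the same 5 genes were called, where 7.8% of all genes were higher. How many of all genes lie apart between the genotypes by normalized counts was not counted. Groups without overlap on that measure are therefore given below as values only.

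**Figure D1:**
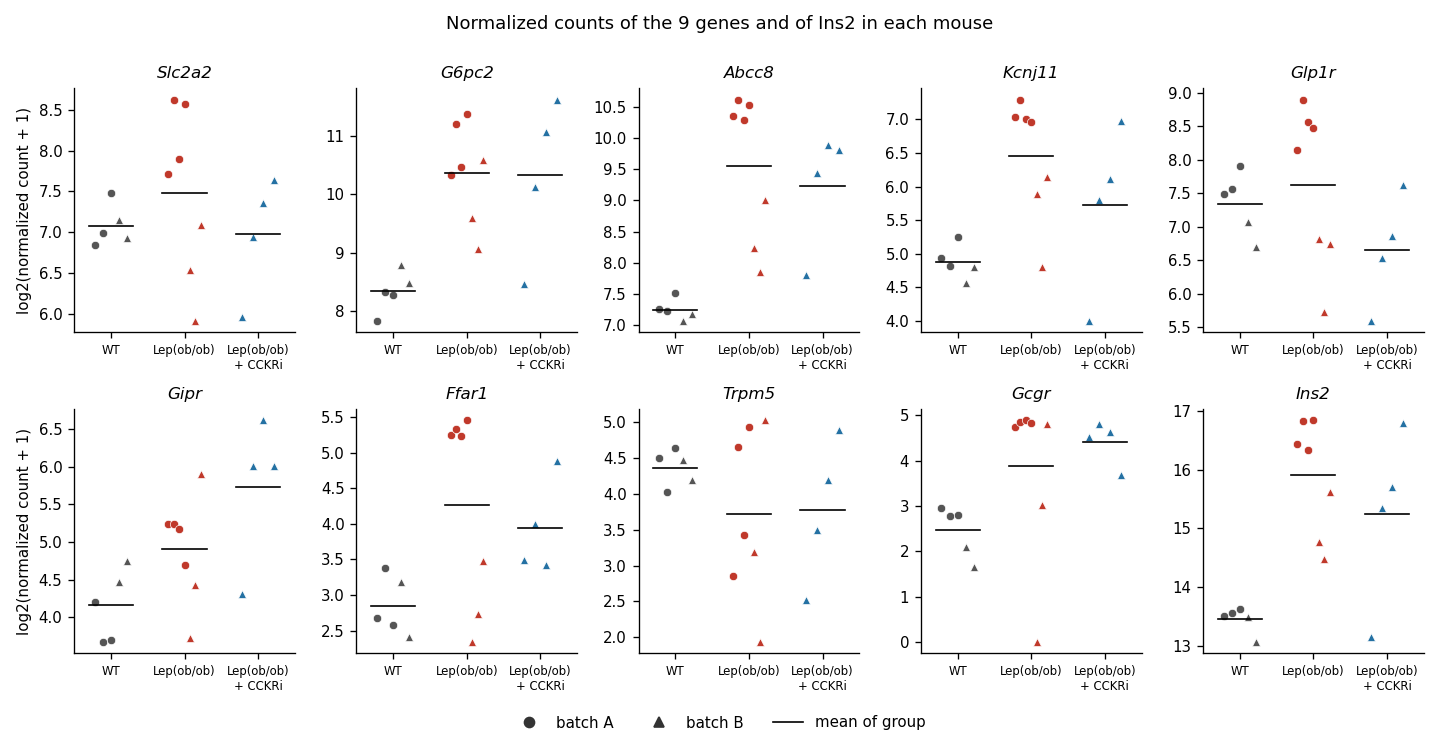
Normalized counts (log2 of the count plus 1) of the 9 genes and Ins2, 1 point for each of the 16 mice, circles for batch A and triangles for batch B, with the mean of each group as a line. Abcc8 and Ins2 of all 7 Lep(ob/ob) mice lie above all 5 WT mice, whereas the triangles of Slc2a2 and Glp1r in Lep(ob/ob) mice lie among or below those of WT.

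For glucose entry and phosphorylation, G6pc2 passed the test in the pooled model and Slc2a2 did not, and the difference between the genes was not tested. Slc2a2 was at 114, 126 and 178 normalized counts in WT mice of batch A and at 141.1 and 121 in those of batch B. In Lep(ob/ob) mice it was at 393, 378, 209 and 238 in batch A and at 92.1, 59.3 and 135 in batch B. All 4 obese mice of batch A lay above their lean batch mates, whereas in batch B 2 of 3 lay below both WT mice. The pooled difference of Slc2a2 was 0.46 ± 0.34 on the log2 scale (95% interval -0.20 to 1.12, adjusted p = 0.437). G6pc2, the phosphatase gene, was at 226, 319, 309, 444 and 358 normalized counts in the 5 WT mice. It was at 2364, 2667, 1287 and 1417 in the obese mice of batch A and at 773, 535 and 1534 in those of batch B. Every obese mouse lay above every lean one, and the difference was 2.10 ± 0.47 (4.28-fold, adjusted p = 0.00993).

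Both subunits of the ATP-gated potassium channel were higher in obese pancreas. Abcc8 was at 152, 148, 182, 133 and 144 normalized counts in WT mice. It was at 1567, 1472, 1301 and 1246 in the obese mice of batch A and at 299, 230 and 511 in those of batch B, with no overlap between the genotypes. The difference, 2.36 ± 0.38 (5.12-fold, adjusted p = 0.00101), was the largest of the 9. Kcnj11 was at 29.6, 27.1, 36.97, 22.7 and 27.0 normalized counts in WT mice, at 124 to 156 in the obese mice of batch A, and at 58.2, 26.8 and 69.8 in those of batch B. Mouse 463 was the only obese mouse within the range of WT. Kcnj11 was 1.67 ± 0.40 higher on the log2 scale (3.19-fold, adjusted p = 0.0136).

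The incretin receptors did not pass the test in the pooled model. Glp1r, the receptor for glucagon-like peptide, was at 179, 188.2 and 240 normalized counts in WT mice of batch A and at 133 and 103 in those of batch B. Lep(ob/ob) mice had 477, 353, 283 and 378 in batch A and 112, 52.3 and 106 in batch B. As for Slc2a2, the groups were apart in batch A and overlapped in batch B, and the pooled difference was 0.36 ± 0.31 (95% interval -0.26 to 0.98, adjusted p = 0.527). Gipr, the receptor of the other incretin, was at 11.8 to 26.0 normalized counts in WT mice, at 24.9 to 36.8 in the obese mice of batch A, and at 12.2, 20.5 and 58.6 in those of batch B. Its difference was 0.87 ± 0.41 (adjusted p = 0.213), from 9 to 53 reads per mouse in these 2 groups.

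Gcgr and Ffar1, 2 receptors with few reads, were higher. Gcgr, which binds glucagon, was at 2.16 to 6.73 normalized counts in WT mice, at 25.7 to 28.6 in the obese mice of batch A, and at 0, 7.06 and 27.0 in those of batch B. Mouse 461 had 0 reads of Gcgr, which by a limit of 3 reads allows up to 4.06 normalized counts. The difference was 2.10 ± 0.54 (adjusted p = 0.0225), from 2 to 6 reads in each WT mouse. Ffar1, the fatty acid receptor that couples to calcium release, was at 4.33 to 9.41 normalized counts in WT mice, at 36.7 to 42.8 in the obese mice of batch A, and at 4.06, 5.65 and 10.1 in those of batch B. The obese mice of batch B thus overlapped WT, and the pooled difference was 1.73 ± 0.46 (adjusted p = 0.0253). Without any 1 of the WT mice 5489, 5492 and 5494 of batch A, neither Ffar1 nor Gcgr was called and G6pc2, Abcc8 and Kcnj11 were, with 4.08%, 4.64% and 4.34% of all genes higher in these 3 fits. Without WT mouse 59, Gcgr was not called, and 4.59% of all genes were higher.

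Trpm5 showed no difference larger than its spread. It was at 15.3 to 24.0 normalized counts in the 5 WT mice, at 24.1, 29.6, 6.26 and 9.80 in the obese mice of batch A, and at 8.12, 2.82 and 31.5 in those of batch B. The highest and the lowest values of all 12 mice were both from obese mice, and the difference was -0.34 ± 0.53 (adjusted p = 0.748), from 4 to 38 reads per mouse. Tssc4, which overlaps Trpm5, had 59 to 270 reads in the same 12 mice. Trpm5 is also a gene of tuft cells. Of 9 tuft cell markers chosen, the 8 found among the deposited symbols summed to 13.2 to 17.01 CPM in WT and 10.4 to 40.3 CPM in Lep(ob/ob) mice. Among these 8, Il25 had 0 reads in all mice and Pou2f3 had 0 to 5. By edgeR, 0 of the 4 that were tested differed between these groups at an adjusted p under 0.05. The part of tuft cells in the Trpm5 reads was not tested.

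The genotypes were also compared within each batch. Within batch A alone, 8 of the 9 genes were higher in Lep(ob/ob) mice, where 6.75% of all genes were, including Slc2a2 (1.15, adjusted p = 0.0207), Glp1r (0.91, adjusted p = 0.0104) and Gipr (1.33, adjusted p = 0.0224), and only Trpm5 (-0.21) was not. Within batch B alone, 0 of the 9 genes were called by edgeR, as were 0.057% of all genes, while 2377 of 14045 had an unadjusted p under 0.05. The differences of Slc2a2 (-0.49), Glp1r (-0.43) and Trpm5 (-0.48) were below 0 there, and those of Gcgr (2.04), Abcc8 (1.29), G6pc2 (1.22), Kcnj11 (0.996), Gipr (0.33) and Ffar1 (0.099) above it. Ffar1 thus differed by far less there (adjusted p = 0.957, edgeR) than in the pooled model (1.73). By exact two-sided permutation tests on log2 CPM within batch A, Abcc8, G6pc2, Kcnj11, Gipr, Ffar1 and Gcgr had the smallest p that 4 against 3 mice allow (0.0286), and Slc2a2 and Glp1r had 0.0571. How many of all genes reach that p was not counted, so these p-values do not set the genes apart. In batch B the smallest p possible with 3 against 2 mice is 0.1. In a test of the interaction of genotype and batch by edgeR, 0 of the 9 genes were called, nor were any of all genes (0.0% of 13189), while at an unadjusted p under 0.05 there were 6 of the 9 and 1574 of all genes. By DESeq2, Abcc8 (-1.83, adjusted p = 0.00532) alone of the 9 was called, and 52 of all genes. The interaction was below 0 for all 9, from -0.10 for Gcgr to -2.46 for Ffar1, and Ins2 itself had -1.36. Without the 4 libraries rich in adipocyte transcripts, 8 of the 9 genes were higher in Lep(ob/ob) mice, where 7.48% of all genes were, Slc2a2 by 0.94 (adjusted p = 0.0103) and Glp1r by 0.71 (adjusted p = 0.0436), and Trpm5 was again the exception (0.27). The part of adipose tissue or of the batch itself in these differences was not tested.

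Each gene was next set against islet content. Per 1000 reads of Ins2, Slc2a2 had 9.85, 10.4 and 14.0 reads in WT mice of batch A and 12.2 and 14.2 in those of batch B. Lep(ob/ob) mice had 3.37, 3.21, 2.35 and 2.86 in batch A and 3.28, 2.61 and 2.67 in batch B. No obese mouse overlapped a lean one, in either batch. The same held for 65.8% of all genes over all mice, so that this separation is no result about Slc2a2. Glp1r gave a like picture, with 15.4, 15.5, 18.9, 11.5 and 12.0 reads in WT mice. Lep(ob/ob) mice had 4.09, 3.001, 3.18 and 4.56 reads of Glp1r in batch A and 4.01, 2.30 and 2.09 in batch B. Trpm5 had 1.26 to 2.02 reads per 1000 Ins2 reads in WT and 0.0704 to 0.623 in Lep(ob/ob) mice, again without overlap. Gipr had 0.947 to 3.04 in WT and 0.212 to 1.16 in Lep(ob/ob) mice, and was apart within each batch but not across them. In all, 3 of the 9 genes lay below WT without overlap over all mice, 6 of 9 within batch A and 7 of 9 within batch B, beside 65.8%, 95.5% and 78.5% of 13655 genes.

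**Figure D2:**
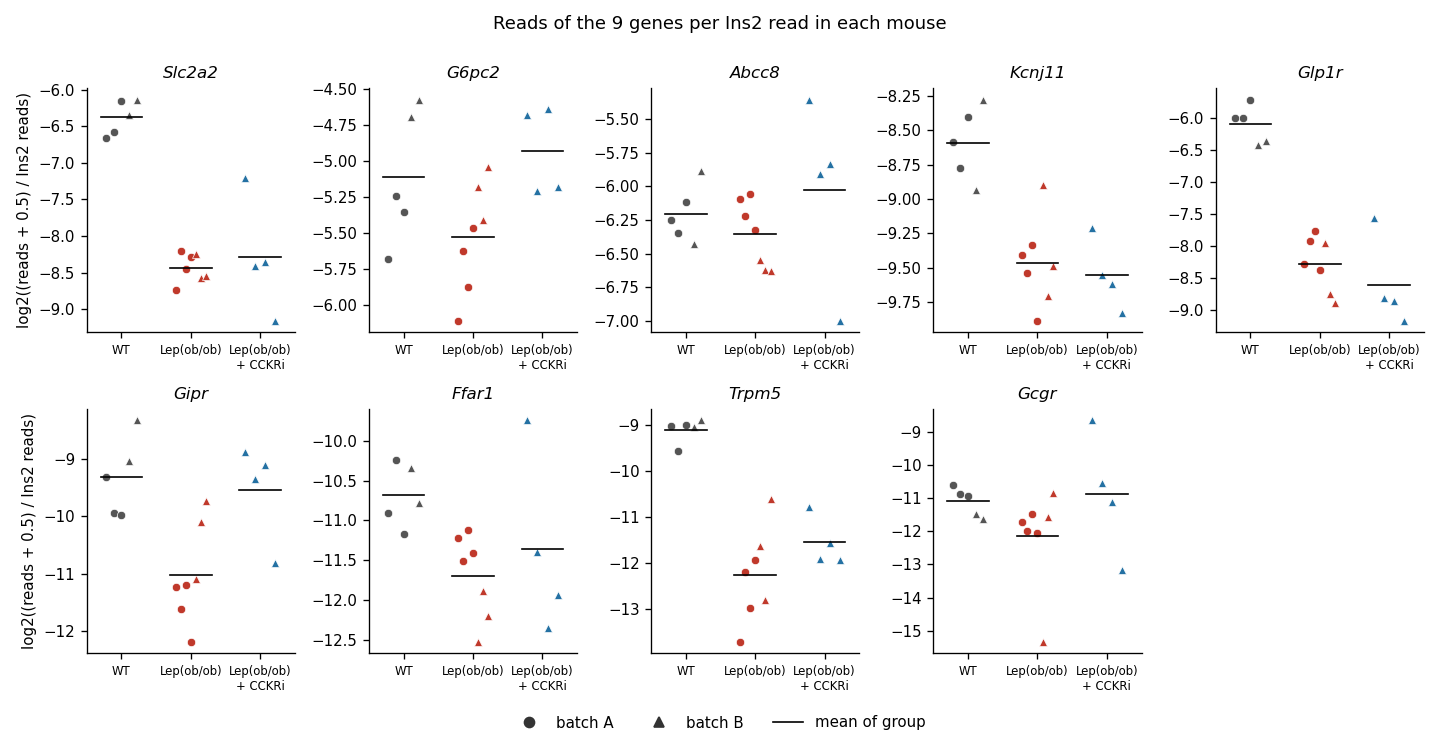
Reads of each of the 9 genes per Ins2 read (log2, after 0.5 was added to the reads of the gene) in the 16 mice, circles for batch A and triangles for batch B, with the mean of each group as a line. For Slc2a2, Glp1r and Trpm5 all 7 Lep(ob/ob) mice lie below all 5 WT mice in both batches, while for Abcc8 the groups overlap.

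The ratios of Abcc8 and G6pc2 to Ins2 overlapped between the genotypes over all mice, and lay below WT in batch B. Abcc8 had 11.5 to 16.8 reads per 1000 Ins2 reads in WT mice and 12.5 to 15.02 in the obese mice of batch A, with 10.7, 10.1 and 10.1 in batch B. G6pc2 had 19.5, 26.3 and 24.4 in WT mice of batch A and 38.6 and 41.9 in those of batch B, against 20.3, 22.6, 14.5 and 17.1 and then 27.6, 23.5 and 30.3 in Lep(ob/ob) mice. In both genotypes the ratio of G6pc2 was higher in batch B than in batch A, without overlap. Kcnj11 had 1.97 to 3.16 reads in WT and 1.05 to 2.08 in Lep(ob/ob) mice, Ffar1 had 0.395 to 0.777 and 0.145 to 0.443, and Gcgr had 0.253 to 0.580 and 0 to 0.534, each with overlap over all mice. Within batch A, Kcnj11 (1.05 to 1.55 against 2.23 to 2.92) and Gcgr (0.231 to 0.345 against 0.473 to 0.580) lay below WT, and within batch B Ffar1 did (0.145 to 0.248 against 0.506 to 0.704). Each of the 3 overlapped WT in the other batch.

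When the Ins2 count of each mouse was used as its library size in edgeR, 4 of the 9 genes were lower in Lep(ob/ob) than in WT mice and none was higher. These were Slc2a2 (-2.06 ± 0.48 on the log2 scale, 4.17-fold lower, adjusted p = 0.000332), Glp1r (-2.13 ± 0.48, 4.37-fold lower, adjusted p = 0.00026), Trpm5 (-2.996 ± 0.59, 7.98-fold lower, adjusted p = 0.000105) and Gipr (-1.65 ± 0.55, 3.14-fold lower, adjusted p = 0.00595). On this scale 93.2% of all genes were lower, with a median of -2.49, since a gene that does not change per library falls here by the rise of Ins2, so that being lower does not set the 4 genes apart. The other 5 genes were not called, Abcc8 (-0.15 ± 0.47, adjusted p = 0.755), G6pc2 (-0.43 ± 0.45, adjusted p = 0.359), Gcgr (-0.53 ± 0.73, adjusted p = 0.483), Kcnj11 (-0.85 ± 0.50, adjusted p = 0.102) and Ffar1 (-0.91 ± 0.61, adjusted p = 0.149). Among the other beta cell markers on this scale, Pdx1, Mafa, Ucn3 and Slc30a8 were lower (4 of 7 tested) and Ins1, Iapp and Nkx6-1 were not called.

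The differences relative to Ins2 had the same sign in both batches for 7 of the 9 genes, beside 94.8% of all genes, and so for all but Abcc8 (0.069 in batch A and -0.46 in batch B) and Gcgr (-0.88 and 0.12). Slc2a2 differed by -1.959 in batch A and -2.21 in batch B, Glp1r by -2.17 and -2.07, Gipr by -1.72 and -1.54, Kcnj11 by -0.93 and -0.73 and G6pc2 by -0.33 and -0.57. Trpm5 (-3.35 and -2.45) and Ffar1 (-0.47 and -1.58) were further apart. With 7 mice, batch A alone called 5 of the 9 genes lower, Kcnj11 (adjusted p = 0.00426) beside the 4 of the pooled model, and 96.8% of all genes. With 5 mice, batch B alone called 0 of the 9 genes by edgeR and 0.0% of 13659 in all, with 1676 genes at an unadjusted p under 0.05. In an exact two-sided permutation test of log2 reads per Ins2 read, with mice exchanged only within a batch and a test added after the data had been seen, Slc2a2, Glp1r, Gipr and Trpm5 reached the smallest p that the 350 splits allow (0.00286), as did 76.6% of all genes with a lower ratio in obese mice. Kcnj11 and Ffar1 had p = 0.00571, G6pc2 had 0.0171, Gcgr 0.123 and Abcc8 0.297 in the same exact permutation test of 9 genes, unadjusted. With Ins1 in place of Ins2 the same 4 genes were lower, as were 89.3% of all genes, and with the geometric mean of 6 granule genes (Chga, Chgb, Scg2, Scg5, Pcsk1 and Pcsk2) Kcnj11 was lower as well, as were 95.5% of all genes. Without the 4 libraries rich in adipocyte transcripts Slc2a2 (-1.99), Glp1r (-2.21), Gipr (-1.57) and Trpm5 (-2.62) were lower, and Kcnj11 too (-0.95, adjusted p = 0.0206), while Abcc8 had -0.11, and 97.1% of all genes were lower.

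**Figure D3:**
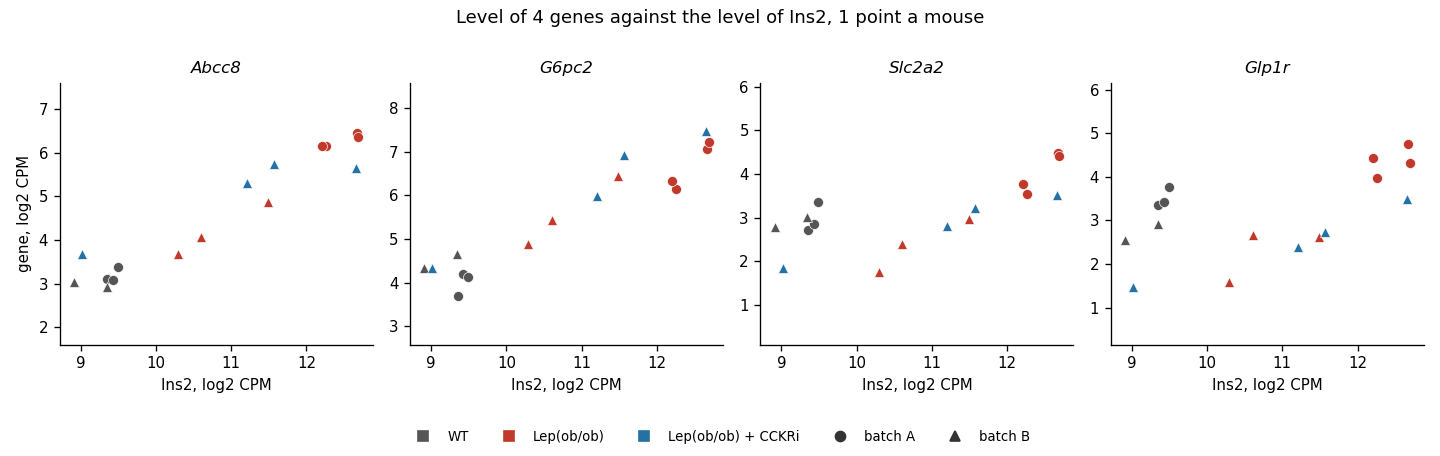
Level of Abcc8, G6pc2, Slc2a2 and Glp1r against that of Ins2 (log2 CPM), 1 point a mouse, coloured by group and shaped by batch, with y axes of equal span. Abcc8 and G6pc2 of lean and obese mice fall along 1 rising band, whereas for Slc2a2 and Glp1r the lean mice lie above the band of the obese mice at low Ins2.

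The effect of the CCK receptor antagonists was compared within the obese mice. No call was made for any of the 9 genes between obese mice with and without CCKRi by edgeR, at an adjusted or an unadjusted p under 0.05, and DESeq2 called none of them either. Over all genes, edgeR called 0.0586% in either direction and DESeq2 called 92 genes, while 1951 of 13660 had an unadjusted p under 0.05 by edgeR. Since all treated mice were in batch B, the values of that batch bear on this comparison. Abcc8 was at 221.9 and 692 normalized counts with proglumide and at 942 and 893 with lorglumide, next to 299, 230 and 511 in the untreated mice of batch B. G6pc2 was at 353, 1123, 2153 and 3163 with CCKRi and at 773, 535 and 1534 without. Both spanned the untreated values, because proglumide mouse 69 had the lowest level of each.

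Slc2a2 was at 61.4, 122, 163.8 and 199 normalized counts with CCKRi, next to 92.1, 59.3 and 135 in untreated batch mates. Glp1r was at 47.2, 91.3, 115 and 197 with CCKRi and at 112, 52.3 and 106 without. Kcnj11 was at 14.9, 55.0, 67.9 and 125 with CCKRi and at 58.2, 26.8 and 69.8 without. For each of these genes mouse 69 was again lowest and lorglumide mouse 76 highest of the 4, the order that Ins2 had too (9087, 41636, 53806 and 114507). Gipr was at 18.9, 63.3, 97.0 and 63.2 with CCKRi against 12.2, 20.5 and 58.6, and Gcgr was at 22.03, 27.0, 23.7 and 11.9 against 0, 7.06 and 27.0. Ffar1 ranged from 9.70 to 28.6 against 4.06 to 10.1, and Trpm5 from 4.72 to 28.6 against 2.82 to 31.5. Every gene overlapped between treated and untreated mice.

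The differences made by CCKRi in obese mice ran from 0.00 for Glp1r (95% interval -0.54 to 0.54) to 0.90 for Gcgr (95% interval -0.22 to 2.02). Slc2a2 had 0.11 (-0.71 to 0.92), Kcnj11 0.13 (-0.77 to 1.02), Trpm5 0.06 (-1.23 to 1.35), G6pc2 0.46 (-0.61 to 1.53), Abcc8 0.54 (-0.31 to 1.40), Ffar1 0.70 (-0.32 to 1.73) and Gipr 0.80 (-0.13 to 1.72). Each SE was derived from the difference and its test statistic, which is unreliable for a difference as near 0 as that of Glp1r. Its SE was 0.27 here, against 0.31 for Lep(ob/ob) minus WT and 0.40 for CCKRi minus WT. The width of its interval is therefore uncertain. The intervals of the other 8 genes leave room for a change of more than 1.5-fold upward. Ins2 had 0.36 ± 0.54. A fit of batch B alone, which holds all treated mice, gave 0.14 for Trpm5 to 1.28 for Ffar1, with Abcc8 at 1.03, Gipr at 1.03, Gcgr at 0.93, G6pc2 at 0.88, Slc2a2 at 0.56, Kcnj11 at 0.40, Glp1r at 0.37 and Ins2 at 0.74, and called none (adjusted p = 0.343 to 0.940). Exact two-sided permutation tests on log2 CPM within batch B gave p = 0.114 to 0.857 for the 9 genes, where 4 against 3 mice can reach 0.0286. Without the 4 libraries rich in adipocyte transcripts the 9 differences ran from -0.50 for Trpm5 to 0.37 for Gipr and none was called. The 2 drugs were given at different doses to 2 mice each, and their values stand side by side above without a test.

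Relative to Ins2, 0 of the 9 genes differed between obese mice with and without CCKRi by edgeR, as 0.0% of all 13659 genes were called on this scale, with 346 genes and 1 of the 9 at an unadjusted p under 0.05. That one was Gcgr (1.72, 95% interval 0.10 to 3.34, adjusted p = 0.922), which had 2.42, 0.649, 0.441 and 0.104 reads per 1000 Ins2 reads with CCKRi and 0, 0.311 and 0.534 without. The largest of these came from mouse 69, whose Ins2 count was the lowest of all obese mice. In that mouse Slc2a2 (6.75), Glp1r (5.20), Gipr (2.08), Ffar1 (1.13) and Abcc8 (24.4) per 1000 Ins2 reads were also the highest of the 11 obese mice. In the other 3 treated mice Slc2a2 had 2.93, 3.05 and 1.74 reads and Glp1r 2.19, 2.14 and 1.72, next to 2.61 to 3.28 and 2.09 to 4.01 in the untreated mice of batch B.

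**Figure D4:**
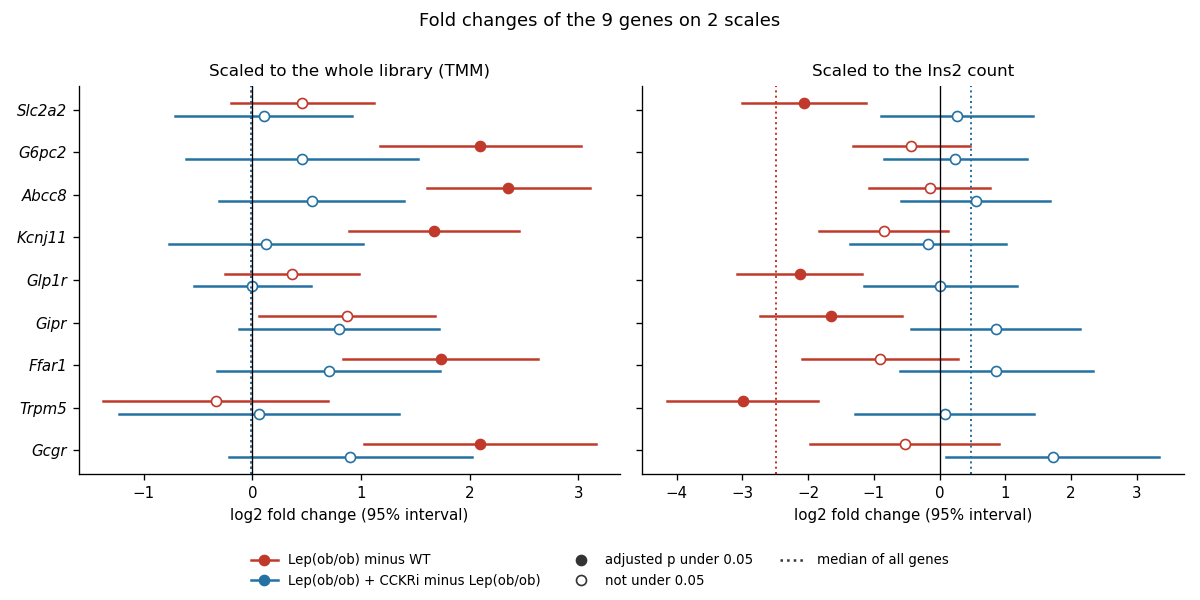
Log2 fold changes with 95% intervals of the 9 genes for Lep(ob/ob) minus WT (red) and CCKRi minus untreated Lep(ob/ob) (blue), scaled to the whole library on the left and to the Ins2 count on the right, with the median of all genes as a dotted line. On the left 5 red points are filled (adjusted p under 0.05) and above 0, on the right 4 are filled and below 0, and no blue point is filled on either scale.

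Treated obese mice were also compared with lean mice, a comparison that shares its WT mice with the first and rests on 4 treated mice of 1 batch. The same 5 genes were higher in CCKRi-treated mice than in WT, where 4.22% of all genes were higher. Gcgr had 2.997 ± 0.68 (adjusted p = 0.0133), Abcc8 2.90 ± 0.45 (adjusted p = 0.000943), G6pc2 2.56 ± 0.56 (adjusted p = 0.00956), Ffar1 2.44 ± 0.58 (adjusted p = 0.0168) and Kcnj11 1.80 ± 0.50 (adjusted p = 0.0412). In a fit of these 2 groups alone, which tested 8 of the 9 genes and not Gcgr, only Abcc8 was called (2.33, adjusted p = 0.0277), while G6pc2 had 2.10 (adjusted p = 0.115) and Ffar1 and Kcnj11 each had 1.39 (adjusted p = 0.336 and 0.333). Within batch B alone none of the 9 was called, with adjusted p values from 0.149 for Abcc8 to 0.997 for Glp1r. Without mouse 76 only G6pc2, Abcc8 and Gcgr were called, and 3.41% of all genes were higher. Kcnj11 was called in 4 of the 16 fits that left out 1 mouse, those without 59, 463, 464 or 69. Relative to Ins2, Slc2a2 (-1.79 ± 0.63, adjusted p = 0.0274), Glp1r (-2.11 ± 0.64, adjusted p = 0.0246) and Trpm5 (-2.92 ± 0.79, adjusted p = 0.0239) were lower, 3 of the 9 where 64.9% of all genes were lower. No treated mouse overlapped a lean one for these 3 ratios, nor for that of Kcnj11, which was not called (1.09 to 1.65 with CCKRi, 1.97 to 3.16 in WT), and 14.8% of all genes lay below WT in this way. Without mouse 72 or without mouse 74 none of these 3 was called (0.512% and 0.52% of all genes lower), and without WT mouse 59 Slc2a2 was not (50.3%).

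The levels of the 9 genes were ordered after division by exon length, as CPM per kb of exons. In WT mice G6pc2 led with 9.48 ± 2.26 (SD, n = 5), apart from all others. Glp1r (1.64 ± 0.52), Slc2a2 (1.34 ± 0.25) and Abcc8 (1.06 ± 0.13) followed. Slc2a2 overlapped Glp1r and Abcc8 overlapped Slc2a2, while Abcc8 was apart from Kcnj11 after it. Kcnj11 (0.441 ± 0.0819), Gipr (0.286 ± 0.0974), Trpm5 (0.175 ± 0.0309), Gcgr (0.104 ± 0.0429) and Ffar1 (0.0873 ± 0.0300) came last. In Lep(ob/ob) mice Abcc8 was second (6.56 ± 4.00, SD, n = 7) after G6pc2 (42.9 ± 22.2), and in all 7 of them above Glp1r (2.43 ± 1.58), with Slc2a2 (2.09 ± 1.29) next. Trpm5 was last in Lep(ob/ob) mice (0.141 ± 0.106) and with CCKRi (0.134 ± 0.0909, SD, n = 4). Ins2 was at 487 ± 70.3 in WT and 3099 ± 1686 in Lep(ob/ob) mice on the same scale.

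Genes whose levels ran most alike were found over the 16 mice by Pearson's r of log2 CPM after the batch means were taken off, a description in which mice of 1 group share their condition and genes share their library. For G6pc2 they were Ins1 (0.988), Vdr (0.987) and Spc25 (0.983), for Abcc8 Hap1 (0.993), Iapp (0.992) and Tmem27 (0.989), and for Kcnj11 Vdr (0.969), Syt4 (0.968) and Ins2 (0.967). Slc2a2 and Glp1r were near each other (0.919). Slc2a2 was most like Esm1 (0.937) and B830017H08Rik (0.933), and Glp1r most like Pdx1 (0.936), the beta cell homeodomain factor, with Rcan3 (0.893) after Slc2a2. Gipr ran with Rgag4 (0.943), Mrln (0.939) and Celsr3 (0.936), and Ffar1 with Hopx (0.934), Stmn3 (0.933) and Tagln3 (0.923). Gcgr ran with Meg3 (0.921), Snhg11 (0.898) and Crocc (0.892), and Trpm5 with Mtx2 (0.931), Cldn7 (0.894) and Mrto4 (0.882). The r with Ins2 was 0.980 for G6pc2, 0.967 for Kcnj11, 0.961 for Abcc8, 0.850 for Ffar1, 0.754 for Gipr, 0.739 for Slc2a2, 0.685 for Glp1r, 0.611 for Gcgr and 0.165 for Trpm5.

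Other genes of the same pathways were counted from lists in Lep(ob/ob) against WT, where 5.93% of all genes were higher, 3.14% were lower and the median was -0.02. Of the ion channels and calcium entry genes, 15 of 31 tested were higher and none was lower, with a median of 0.74. They included the sodium channel gene Scn3a (3.48 ± 0.40, adjusted p = 8.08e-05), the large conductance channel Kcnma1 (1.69 ± 0.28, adjusted p = 0.00104) and Cacna2d1 (1.09 ± 0.19, adjusted p = 0.00198). Of the glucose uptake and metabolism genes 3 of 27 were higher, Ucp2, Pfkfb3 and Hk2, with a median of 0.38. Of the transcription factors known to act on these genes 6 of 14 were higher, among them Insm1 (2.00 ± 0.37, adjusted p = 0.00242) and Nkx6-1 (1.65 ± 0.35, adjusted p = 0.00682), with a median of 0.78. Pdx1 (0.58 ± 0.30, adjusted p = 0.26) and Mafa (0.53 ± 0.39, adjusted p = 0.442) did not pass the test. Pdx1 and Mafa are named here after their values had been seen. Relative to Ins2 none of these 3 lists had a higher gene: 20 of the 31 channel genes were lower (median -1.75), 22 of the 27 metabolism genes (median -2.09) and 10 of the 14 transcription factors (median -1.72), beside 93.2% of all genes and their median of -2.49.

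Of the other G protein coupled receptors of islets, 8 of 21 tested were higher in Lep(ob/ob) mice and 3 were lower, beside 5.93% and 3.14% of all genes. The short-chain fatty acid receptor Ffar2 (2.44 ± 0.33, adjusted p = 0.000233), the somatostatin receptor Sstr3 (2.61 ± 0.39, adjusted p = 0.000597) and the calcium-sensing receptor Casr (2.33 ± 0.36, adjusted p = 0.000719) rose, while Sstr2 (-1.17 ± 0.25, adjusted p = 0.00677), the secretin receptor Sctr (-1.39 ± 0.34, adjusted p = 0.016) and Vipr2 (-0.68 ± 0.17, adjusted p = 0.016) fell. Of the cAMP and Gq relay 7 of 46 were higher, led by Rgs16 (2.75 ± 0.30, adjusted p = 5.73e-05), a brake on G protein signals, and Pde10a (2.15 ± 0.28, adjusted p = 0.000174), a phosphodiesterase, and 2 were lower (Plcb4 and Pde8b). Of the incretin ligands and their processing enzymes 2 of 6 were higher, the prohormone convertases Pcsk2 (2.41 ± 0.42) and Pcsk1 (1.85 ± 0.39). Relative to Ins2, 12 of the 21 receptors were lower (median -1.64), 40 of the 46 relay genes (median -2.30) and 4 of the 6 ligand and enzyme genes (median -1.75), and none was higher. On that scale 93.2% of all genes were lower, with a median of -2.49, so these counts do not set the lists apart. Between obese mice with and without CCKRi, 1 gene of these 6 lists was called, the calcium channel subunit Cacnb2 (1.29 ± 0.21, adjusted p = 0.0365), with 85.8 to 134 normalized counts with CCKRi and 40.6 to 77.4 without.

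Markers of other cells were read beside these results. The 8 beta cell markers, Ins2 among them, summed to 1046 to 1347 CPM in WT mice, 2280 to 11584 in obese untreated mice and 1375 to 12894 with CCKRi, and the 5 alpha cell markers to 225 to 520, 218 to 1016 and 186 to 1691. Acinar markers (8 genes) summed to 134294 to 632717 CPM in WT mice, 143671 to 580953 in obese untreated mice and 73186 to 214308 with CCKRi, so the libraries are those of exocrine pancreas. As CPM rest on a scaled library size, these sums are not shares of the reads of a mouse. Slc2a2 and Gcgr are also liver genes. The hepatocyte list (4 of its 5 genes had counts) summed to 14.7 to 68.5 CPM in WT mice, 22.5 to 103 in obese untreated mice and 22.03 to 133 with CCKRi. Alb had 23 to 543 reads in WT mice, 32 to 162 in obese untreated mice and 47 to 118 with CCKRi, with Apoa1 at 0 to 44. Ttr, a gene of alpha cells too, had 200 to 446 reads in WT mice and 487 to 2475 in obese untreated mice and was higher in the latter (1.55 ± 0.36, adjusted p = 0.0119), 1 of 2 genes of the list that were tested. The part of any of these cell types in the 9 genes was not tested.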

How the data were processed

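Total RNA of snap-frozen, pulverized pancreas (RNA integrity number above 7, per the labels) was polyA selected and sequenced as paired, strand-specific reads. Per the submitters' notes the authors used Trim Galore 0.6.7, cutadapt 3.5, STAR 2.7.9, mm10 and DESeq2. The read counter, its strand setting and its annotation are not given in the sources used here. The deposited raw values are whole-number read counts per gene, and the normalized counts that the authors deposited (unit signal) are the raw counts times 1 constant per mouse. They do not correct for gene length. Columns of no sample in the labels numbered 0.

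Raw counts were fitted with edgeR 4.0.16 (R 4.3.3), TMM scaling, a low-count filter (minimum count 10) and a batch term in 1 quasi-likelihood model of 16 mice, 3 groups and 3 comparisons, and p-values were adjusted over all genes by Benjamini-Hochberg with a threshold of 0.05. For values relative to islet content, the library size was set to the Ins2 count. CPM used the library size of each mouse after the filter and TMM scaling, not the total of its reads. Log2 CPM had a prior count of 2, and 0.5 was added to reads before ratios to Ins2. Alternatives were DESeq2 1.42.0, RLE scaling, scaling without the 50 most counted genes, other filters, no batch term, single batches, single drugs, other islet reference genes and fits without each mouse. Permutation tests were exact (scipy 1.17.1) and two-sided. Tables and plots were made in Python 3.11.15 with numpy 2.4.6, pandas 2.3.3 and matplotlib 3.10.9. Motifs were searched by their letters on both strands.

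In simulated data with 200 changed genes, changes of 2-fold and 4-fold were recovered for 69% and 99% in Lep(ob/ob) against WT, and 58% and 96% in CCKRi against Lep(ob/ob), with 74% and 98%, and 51% and 88%, when scaled to Ins2. The simulated Ins2 had counting noise only, with no rise in obese mice, and no batch effect was simulated. Only genes with a mean above 1 CPM were changed. These rates therefore do not give the power of the real tests scaled to Ins2, nor that for genes with few reads. Mice of 1 group differed by 8.57 to 435 in chi-square per gene over 37 pairs, so none was counted as a repeat. Each replicate is 1 mouse, and p-values measure the spread between mice. The members and lists were chosen with earlier results of these data known. Named genes are the 9 members, the islet reference genes, up to 4 genes per list and direction with the smallest adjusted p under 0.05, and the 3 genes most like each member. Some genes that this rule names are not reported here.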

Additional observations from a re-analysis of the deposited data

Results flagged for a closer look

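In all, 4 values stood apart from the others of their group by the gap to the nearest mouse over the range of the group (Dixon's criterion at 95%), out of 57 groups of values tested, where chance gives about 1 in 20, or 2.85. Gcgr of Lep(ob/ob) mouse 461 had 0 reads, against 7.06 to 28.6 normalized counts in the other 6 Lep(ob/ob) mice (gap over range 0.616 on the log2 scale) and 0.231 to 0.534 reads per 1000 Ins2 reads (0.730). A limit of 3 reads allows that mouse up to 4.06 normalized counts of Gcgr and 0.145 reads per 1000 Ins2 reads. Ins2 of WT mouse 59 was at 8549 normalized counts, against 11522 to 12665 in the other 4 WT mice (0.759). Trpm5 of WT mouse 5492 had 13 reads and 1.26 reads per 1000 Ins2 reads, against 1.83 to 2.02 in the other 4 (0.798).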

How the results depend on the processing

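No paired analysis was possible because mice of different groups carry different numbers. The count of 5 genes higher in obese than in lean mice (5.93% of all genes higher) was 3 without the batch term (4.41%), 3 with at least 10 counts in every mouse (5 of the 9 genes tested, 4.09%), 0 in batch B alone (0.057% in either direction), 8 in batch A alone (6.75%) and 8 without the 4 libraries richest in adipocyte transcripts (7.48%), and 3 to 5 when 1 mouse was left out (4.08% to 6.95%). The count of 5 genes higher with CCKRi than in WT (4.22%) became 3 without the batch term (G6pc2 and Abcc8 of the 5, and Gipr; 5.09%), 3 with at least 10 counts in every mouse (2.63%), 1 in a fit of these 2 groups alone (Abcc8, 8 genes tested, 1.42%), 0 in batch B alone (0.0641%) and 1 with proglumide mice alone (Ins2 at 1.75, 1.27%), with 5 for lorglumide mice alone (Gipr in place of Gcgr, Ins2 at 3.49, 4.63%), and 3 to 6 when 1 mouse was left out (3.02% to 5.02%). The count for CCKRi against WT was 6, with Gipr added, by DESeq2 (695 of 13660 genes higher). Without the adipocyte-rich libraries it was 6 too, again with Gipr (861 of 13646 genes higher). For the interaction of genotype and batch, DESeq2 called 1 gene. Relative to Ins2, the 4 genes lower in Lep(ob/ob) mice (93.2% of all genes lower) became 0 in batch B alone (0.0%), 5 in batch A alone (96.8%, Kcnj11 added), and 4 to 5 without 1 mouse (90.4% to 95.4%). The 3 lower with CCKRi than in WT became 0 in batch B alone (0.0293% of all genes lower), 5 without the adipocyte-rich libraries (96.0%), 0 with Ins1 as reference (0.256%) and 1 without the batch term (2.47%), against 64.9% of all genes in the model as reported, and 0 to 4 without 1 mouse (0.512% to 96.2%). Ins2 itself differed by 2.38 to 2.69 between Lep(ob/ob) and WT when 1 mouse was left out.

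Between Lep(ob/ob) and WT, the sign turned for Slc2a2 (-0.49) and Glp1r (-0.43) in batch B alone and for Trpm5 (0.27) without the adipocyte-rich libraries, and relative to Ins2 for Abcc8 (0.069 in batch A alone, 0.12 with Ins1 as reference) and Gcgr (0.12 in batch B alone). The differences made by CCKRi in obese mice, none of them called, turned sign in several settings. Without the batch term these were Slc2a2 (-0.65), Abcc8 (-0.45), Kcnj11 (-0.59), Glp1r (-1.16), Ffar1 (-0.67), Trpm5 (-0.076) and Ins2 (-0.39). With proglumide mice alone they were Slc2a2 (-0.47), G6pc2 (-0.75), Abcc8 (-0.046), Kcnj11 (-0.78), Glp1r (-0.70), Trpm5 (-0.94) and Ins2 (-0.75), and without the adipocyte-rich libraries Slc2a2 (-0.35), Kcnj11 (-0.013), Glp1r (-0.24), Trpm5 (-0.50) and Gcgr (-0.082). Glp1r, at 0.00, was also at -0.013 by DESeq2, -0.016 with RLE scaling, -0.04997 without the 50 most counted genes and -0.0039 without a filter. Leaving out 1 mouse gave -0.21 to 0.36 for Slc2a2, -0.030 to 0.81 for G6pc2, -0.39 to 0.49 for Kcnj11, -0.41 to 0.27 for Glp1r, -0.43 to 0.82 for Trpm5 and -0.29 to 0.72 for Ins2. The cause was not tested. Trpm5 (4 to 38 reads per mouse), Gcgr (0 to 37) and Ffar1 (3 to 55) rest on few reads, which limits their precision.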
